A study of Mus musculus with 24 samples.

Results

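Lilr4b and Lilrb4a are a pair of neighbouring mouse genes that encode the gp49 receptors of the leukocyte immunoglobulin-like receptor family. They were followed here across 24 RNA-seq libraries of mouse small cell lung cancer (SCLC) cell lines in which p53 can be switched back on. They are 2 of the 25239 genes in the deposited table, and both were chosen by their response, being far higher after p53 restoration in one class of lines and near 0 in the other line class. The values that chose them are those of the Control and Restored libraries, and the lower values of Restored libraries treated with Cyclosporin A were also known when they were chosen. Differences with restoration, between line types and of Cyclosporin A with p53 are therefore given as a description, with no test. Only the effect of Cyclosporin A without p53 was tested for the pair, although that comparison also uses the Control values that helped choose them. Both genes were at or near 0 without p53, so this test could hardly show a fall.

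The libraries came from 6 cell lines, each grown from a single tumour of RP TR R2 mice, which lack Rb1 and Rbl2 in the tumour after Ad:CMV-Cre and hold Trp53 off by a gene trap. Addition of 4-hydroxytamoxifen (4-OHT) activates FlpO-ER, which removes the trap and restores p53. The 3 Type D lines (4711-1, 4711-18 and 4716-11) lose viability after p53 restoration, whereas the 3 Type V lines (4711-11, 4716-10 and 4716-14) remain viable. For every line there was 1 library in each of 4 conditions at 72 h: vehicle (Control), vehicle with Cyclosporin A (Control + CsA), 4-OHT (Restored) and 4-OHT with Cyclosporin A (Restored + CsA). CsA is a cyclophilin ligand that also blocks calcineurin. The cell lines are the replicates, so n = 3 lines per group throughout and the errors are the spread between lines, not between repeated cultures of a line. The line names carry 2 prefixes (4711 and 4716), each found in both types, and whether lines with the same prefix came from the same mouse is not given in the sources used here. If they did, lines of a group are not fully independent and the p-values are too small.

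The gp49 receptors carry immunoglobulin domains outside the cell and are best known from mast cells, macrophages, neutrophils and other myeloid cells. Lilrb4a (gp49B, also Lilrb4, CD85K or ILT3) encodes an inhibitory receptor whose cytoplasmic tail holds immunoreceptor tyrosine-based inhibitory motifs (ITIMs). Phosphorylated ITIMs recruit the phosphatases SHP-1, SHP-2 and SHIP-1, which dampen signals from activating receptors. Lilr4b (gp49A) encodes a close relative without that tail.

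In the GENCODE M21 annotation of GRCm38 the pair lies head to tail on the plus strand of chromosome 10, with Lilr4b (ENSMUSG00000112023.1) at chr10:51480632-51486703 and Lilrb4a (ENSMUSG00000112148.1) at chr10:51490956-51496611, 4252 bases apart. Both main transcripts have 9 exons. The coding sequences, 912 bases in Lilr4b and 1008 bases in Lilrb4a with the stop codon, were identical at 874 of 910 aligned positions (96.0%). Exons 2 to 7 have the same lengths in both genes, but exon 8 has 68 bases in Lilr4b and 66 bases in Lilrb4a. The reading frame of Lilr4b therefore meets a stop codon in exon 8, and the last exon, number 9, is wholly non-coding. Lilrb4a reads on through exon 8 into exon 9, where 78 of 430 bases are coding.

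The 3′ ends of the coding sequences are printed because they hold this difference between the receptors. Each runs from the first base of exon 7 to the stop codon, read from GENCODE M21 transcripts (GRCm38, plus strand). The Lilr4b exons lie between chr10:51484517-51485760 and the Lilrb4a exons between chr10:51494793-51496244. Capitals mark the stop codon in Lilr4b and the codons of the ITIM pattern (I, V, L or S, any residue, Y, any pair of residues, then I, V or L) in Lilrb4a.
Lilr4b: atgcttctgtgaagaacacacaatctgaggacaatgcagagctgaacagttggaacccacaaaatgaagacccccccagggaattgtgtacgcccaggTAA
Lilrb4a: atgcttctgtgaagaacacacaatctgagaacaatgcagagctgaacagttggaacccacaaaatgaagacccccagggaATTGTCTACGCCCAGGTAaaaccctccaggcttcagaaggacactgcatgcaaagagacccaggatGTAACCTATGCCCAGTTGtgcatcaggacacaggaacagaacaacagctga

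The ITIM pattern was found in the encoded Lilrb4a protein of 335 residues at residues 298 to 303 and 320 to 325. The Lilr4b protein of 303 residues had no match in its tail. Both proteins also matched the pattern at residues 8 to 13, at the amino-terminal end and outside the cytoplasmic tail.

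Because the transcripts are so alike, how well reads could be assigned was examined. Of the 1762 stretches of 75 bases (the read length) in the main Lilr4b transcript, 280 (15.9%) also occurred in a Lilrb4a transcript. Of the 1307 such stretches in the main Lilrb4a transcript, 258 (19.7%) also occurred in a Lilr4b transcript. With 31 bases in place of 75, the shared stretches were 33.0% and 41.2%. Most 75-base reads without sequencing errors can thus be told apart, but the split between the genes depends on how the remainder was assigned, and each gene is given alone and as a sum. A protein-coding read-through gene (Gm49339) spans both and an antisense gene (Gm40645) overlaps Lilrb4a in this annotation, and neither is a row of the table used here.

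**Figure D1:**
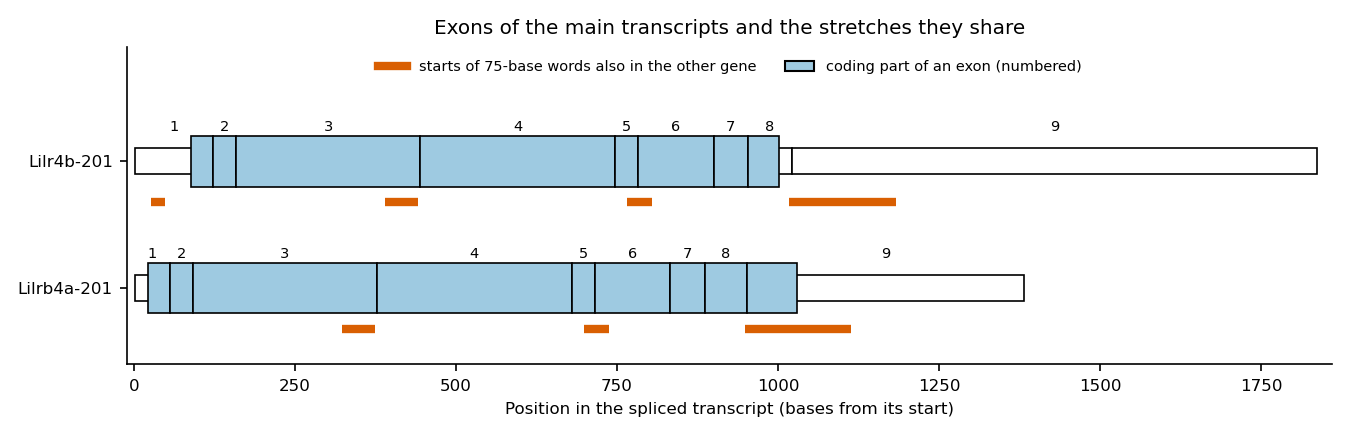
Exons (numbered boxes, wide where coding) of the main transcripts of Lilr4b and Lilrb4a against position in the spliced transcript in bases, with orange bars at the starts of 75-base stretches that also occur in a transcript of the other gene. The coding part ends within exon 8 in Lilr4b and within exon 9 in Lilrb4a, and 15.9% and 19.7% of 75-base starts are shared.

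The deposited values are TPM (a measure scaled to a transcript's length and to each library's total) and carry no read counts, so the depth behind them is unknown. Between 11853 and 12651 genes reached 1 TPM per library. Trp53 was 10.5 to 15.3 TPM in the 12 vehicle libraries and 181 to 253 TPM in the 12 libraries given 4-OHT, with no overlap, and so the labels held for p53 status. Cdkn1a (37.5 to 145 against 1068 to 2540 TPM) and Mdm2 (59.0 to 82.2 against 554 to 1584 TPM), both p53 targets, also separated without overlap. Of the neuroendocrine markers reported here, Chga was listed at 0 in every library, and Calca and Neurod1 stayed at or under 0.105 TPM. Insm1 and Uchl1 had their highest values in Type V, at 1.13 to 49.6 and 3.12 to 40.9 TPM. In Type D they did not exceed 3.39 and 2.66 TPM. Ncam1 (4.46 to 27.3 TPM) was present in every library. Several of the defining neuroendocrine genes were thus absent or nearly so in these cultured lines.

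In Type D cells, Lilr4b was nearly silent without p53 and abundant after its restoration. In Control libraries Lilr4b was 0.471 TPM in 4711-1, 0.118 TPM in 4711-18 and 0.441 TPM in 4716-11. In Restored libraries of the same lines it was 70.6, 20.9 and 13.4 TPM. The lowest Restored value lay far above the highest Control value. The mean difference was 4.40 on the log2(TPM + 1) scale, which understates changes of genes near 0.

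No Lilrb4a was recorded (0 TPM) in any Type D line under vehicle, whether CsA was absent (3 libraries) or present (3 libraries). After restoration it was 17.1 TPM in 4711-1, 7.27 TPM in 4711-18 and 4.74 TPM in 4716-11. The mean difference was 3.25 on the log2(TPM + 1) scale (6.41 with a pseudocount of 0.1 in place of 1), and no fold is given because the Control values are listed at 0. The sum of both genes was 87.8, 28.1 and 18.1 TPM in the Restored libraries.

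In Type V cells the pair stayed at or near 0 although Trp53 RNA returned to a similar range. The p53 target Mdm2 was lower in Type V Restored than in Type D Restored (554 to 762 against 1384 to 1584 TPM). Cdkn1a overlapped between them (1068 to 1734 against 1563 to 2540 TPM). Lilr4b was listed at 0 in all 6 vehicle libraries and in 4711-11 and 4716-10 after restoration, and 4716-14 held 0.101 TPM when Restored and 0.0784 TPM when Restored + CsA. Lilrb4a was above 0 in only 1 of the 12 Type V libraries, 4716-14 Restored, at 0.1996 TPM. The summed mean difference with restoration was 0.13 on the log2(TPM + 1) scale in Type V against 4.78 in Type D, which is the contrast that selected the genes. A gene was called at an adjusted p under 0.05 and a difference of at least 1. Among all 14104 genes tested, 4.49% were called higher with restoration in Type D and 3.39% in Type V.

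**Figure D2:**
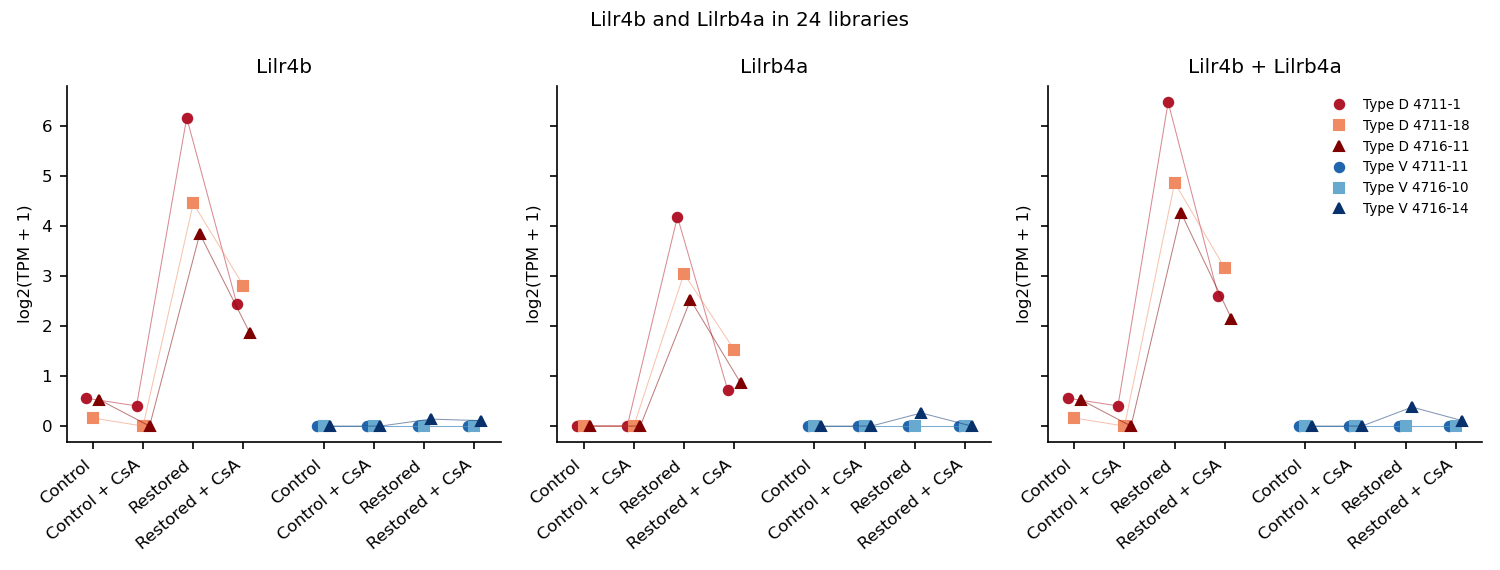
Levels of Lilr4b, Lilrb4a and their sum as log2(TPM + 1) in each of 24 libraries, by condition, with Type D lines in red shades and Type V lines in blue shades and a thin line joining the libraries of a cell line. The 3 Type D lines rise in Restored (sum 18.1 to 87.8 TPM), lie lower in Restored + CsA (3.44 to 7.88 TPM) and are near 0 elsewhere, and the Type V lines stay at or under 0.301 TPM.

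The Type D lines differed from each other in how high the pair rose. The highest Restored value was 5.29 times the lowest for Lilr4b and 3.61 times the lowest for Lilrb4a, whereas the median gene differed 1.49-fold between the same 3 libraries. Of 12154 genes compared in this way, 93.9% had a smaller spread than Lilr4b and 90.4% a smaller spread than Lilrb4a. Trp53 itself spread 1.17-fold and Mdm2 1.14-fold over these libraries, and Cdkn1a 1.62-fold, with its highest value in 4711-18 and not in 4711-1.

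CsA together with 4-OHT left the pair expressed at a lower level. Lilr4b was 4.41 TPM in 4711-1, 6.001 TPM in 4711-18 and 2.62 TPM in 4716-11 in Restored + CsA libraries, and Lilrb4a was 0.655, 1.88 and 0.815 TPM. For both genes the highest Restored + CsA value lay under the lowest Restored value. The summed value with CsA was 5.77% of that without CsA in 4711-1, 28.03% in 4711-18 and 19.0% in 4716-11. The line with the highest Restored level thus had the lowest remaining share, and under CsA the order of the lines changed, with 4711-18 highest. In the same libraries Cdkn1a kept 67.9%, 82.0% and 89.9% of its Restored level, Mdm2 kept 65.7%, 79.7% and 89.9%, and Trp53 was at 101% to 115%. These differences of the pair were known at its choice and were not tested. The libraries are bulk RNA, in which fewer expressing cells and less RNA per cell cannot be told apart. Type D cultures lose viability after restoration, and the paper reports that CsA shielded the Type D lines from this death. Restored and Restored + CsA cultures of Type D are thus not alike in viability, and the part of this in the pair's values was not tested.

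How the pair shared the signal was steadier than its level. Lilrb4a made up 19.5% of the summed TPM in 4711-1, 25.8% in 4711-18 and 26.2% in 4716-11 after restoration. Under CsA its share was 12.9%, 23.9% and 23.7% in the same lines. In each of these 6 libraries Lilr4b was the larger, by 2.81 to 6.73 times, and 4711-1 had the lowest share in both conditions. The 2 genes followed each other with Pearson r = 0.98 over the 24 libraries (Spearman rho 0.82) and r = 0.98 over the 12 Type D libraries (rho 0.93). These correlations are a description: the libraries share lines, many values are 0, and reads that match both genes bind their estimates together.

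**Figure D3:**
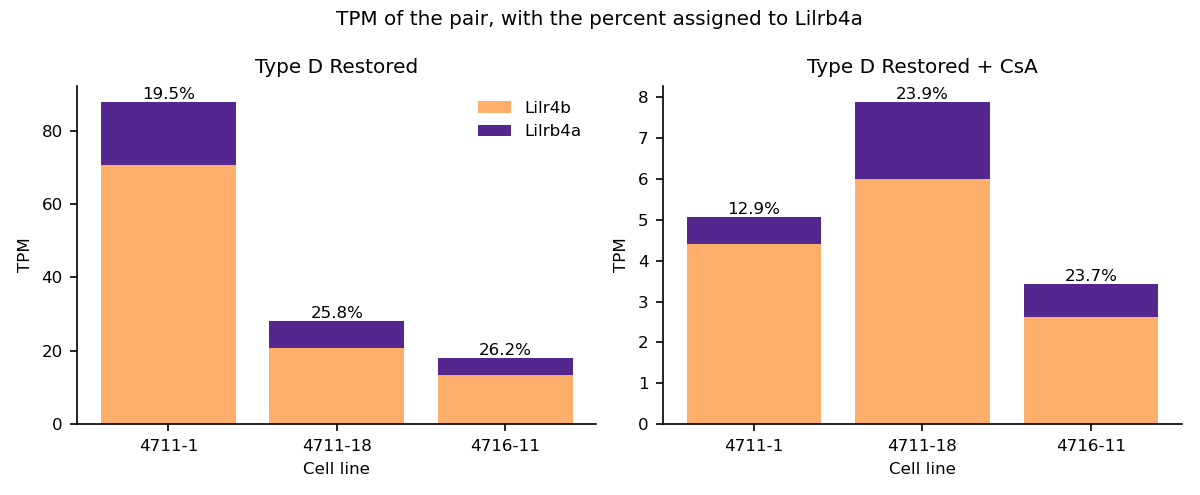
Stacked TPM of Lilr4b (orange) and Lilrb4a (purple) in the 3 Type D lines, Restored on the left and Restored + CsA on the right with separate vertical scales, with the percent of the sum assigned to Lilrb4a above each bar. The summed level ranges from 18.1 to 87.8 TPM and from 3.44 to 7.88 TPM, while the share ranges from 19.5% to 26.2% and from 12.9% to 23.9%.

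The pair was also higher with p53 than without it when CsA was present in both. In Control + CsA libraries of Type D, Lilr4b was 0.322 TPM in 4711-1 and listed at 0 in 4711-18 and 4716-11, and Lilrb4a was listed at 0 in all 3. Every Restored + CsA value of both genes lay above these. The differences within a line were 1.86 to 2.81 on the log2(TPM + 1) scale for Lilr4b (mean 2.23), 0.73 to 1.53 for Lilrb4a (mean 1.04) and 2.15 to 3.15 for the sum (mean 2.50). With a pseudocount of 0.1 in place of 1 the means were 4.70, 3.47 and 5.03, so their size depends on how values near 0 are treated. These are no independent check of the choice, because the Restored + CsA values were known when it was made and both genes passed the expression filter only through Type D libraries with p53.

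In Type V cells under CsA, Lilr4b differed with restoration by 0 to 0.11 within a line and Lilrb4a was listed at 0 in all 6 libraries. With p53 restored and CsA present in both, Lilr4b was 2.62 to 6.001 TPM in Type D against 0 to 0.0784 TPM in Type V, and Lilrb4a was 0.655 to 1.88 TPM against values listed at 0. The line types did not overlap for either gene, as the choice of the pair already implies.

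CsA without p53 gave no called change, but the pair was at or near 0 in both groups. The comparison could thus show a rise but hardly a fall, and its Control values were among those that chose the pair. Lilr4b in Type D was 0.118 to 0.471 TPM in Control and 0 to 0.322 TPM in Control + CsA, ranges that overlap. Within each line it was lower with CsA, with differences of -0.15 (4711-1), -0.16 (4711-18) and -0.53 (4716-11) on the log2(TPM + 1) scale. The mean difference was -0.28 (95% interval -1.09 to 0.53, limma adjusted p = 1). That interval rests on a spread pooled over all 8 groups, not on these groups alone. Lilrb4a was listed at 0 in both groups, as were both genes in both Type V groups. By limma 0.0% of genes were called in either line type, an unadjusted p under 0.05 was found for 114 genes (Type D) and 54 genes (Type V), and with the cell line as a block 2 genes (Tff2 and Atf5, named after their values were seen) and 0 genes were called.

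**Figure D4:**
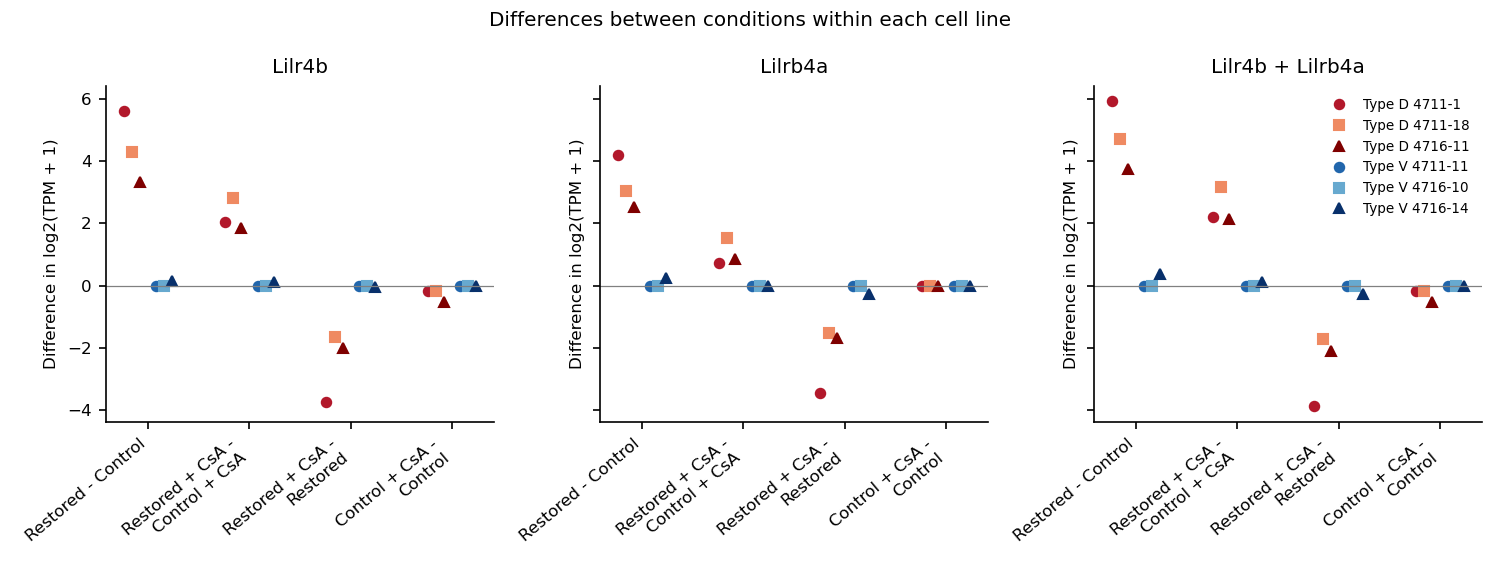
Differences in log2(TPM + 1) between conditions within each cell line for Lilr4b, Lilrb4a and their sum, with 1 point per line, Type D in red shades and Type V in blue shades. The Type D lines lie above 0 for restoration without and with CsA (sum 2.15 to 3.15 with CsA) and below 0 for CsA added to Restored, and the Type V lines lie near 0 throughout.

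In order of level, Type D Restored came first for both genes and Type D Restored + CsA second, and these groups did not overlap each other or any other group. The remaining 6 groups cannot be ordered. For Lilr4b, Type D Control (0.118 to 0.471 TPM) lay above the Type V values (0 to 0.101 TPM) but overlapped Type D Control + CsA, which in turn overlapped all Type V groups.

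Genes beside the pair on the chromosome were looked at next, using the 3 nearest listed genes on each side. Sim1 and Grik2 before it and Rfx6 after it did not exceed 0.228 TPM, and Fam162b and Gprc6a after it were listed at 0 in all 24 libraries. Ascc3, a helicase subunit gene 629147 bases before the pair, was expressed in all libraries at 19.8 to 42.9 TPM and differed with restoration in Type D by -0.59 on the log2(TPM + 1) scale, short of the size threshold. The other 5 did not pass the expression filter, so only Ascc3 could have been called, and it was not. A p53 half-site, searched by its consensus (palindromic, so both strands are read at once) in the 250 bases before the RefSeq start of Lilr4b, was not found, and 7.13% of the 32851 RefSeq promoters of that length held at least 1. This says only that those letters are not in that window.

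Other receptors of the family did not accompany the pair. Of 15 genes of the LILR and paired immunoglobulin-like receptor family, 13 were in the table, none passed the expression filter and 6 were at 0 in all libraries. The highest value of any was 0.567 TPM, for Oscar. Pirb, the other classical inhibitory member, reached 0.105 TPM.

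Of 23 other ITIM receptors, 6 passed the filter and none was called with restoration in either line type, with or without CsA, in the fit without pairing. With the cell line as a block, which pairs the libraries of a line and called 9.69% of all genes under CsA in Type D and 11.2% without CsA, several were called. Tigit, an inhibitory receptor of T and NK cells, rose under CsA in Type D by 1.60 (limma with block, adjusted p = 0.00181), from 8.33 to 58.5 TPM in Control + CsA to 45.1 to 116 TPM in Restored + CsA, ranges that overlap across lines. Without CsA its difference was 0.84 (limma with block, adjusted p = 0.0607), which was not called. Siglecg, an inhibitory receptor of B cells, rose by 1.49 under CsA in Type D (limma with block, adjusted p = 0.0107), a call lost without 4711-18 or 4716-11, and did not exceed 2.52 TPM in Type D. Without CsA its difference in Type D was 0.81 (limma with block, adjusted p = 0.136), which was not called. In Type V, Siglecg rose by 1.51 without CsA and by 1.30 with it (limma with block, adjusted p = 0.00991 and 0.0251), calls lost without 4711-11 and, with CsA, also without 4716-10.

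In the opposite direction, Pilra, an inhibitory member of the paired immunoglobulin-like type 2 receptors, fell by 1.21 under CsA in Type D (limma with block, adjusted p = 0.00042), a call lost without 4711-18. Without CsA its difference was -0.59 (limma with block, adjusted p = 0.0366), short of the size threshold. Ceacam1, a cell adhesion molecule with ITIMs, fell by 1.38 under CsA and by 1.39 without it in Type D (limma with block, adjusted p = 0.00294 and 0.0024), and the call under CsA was lost without 4711-1. Ceacam1 spanned 1.53 to 43.7 TPM in Type D Control and 0.359 to 15.1 TPM in Type D Restored, so the lines differed more from each other than the conditions did.

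Between types, Tigit was higher in Type D in Control (6.79 to 89.6 against 1.16 to 2.41 TPM, limma difference 3.39) and in Restored + CsA (45.1 to 116 against 0.215 to 0.851 TPM, limma difference 5.52). Sirpa, the inhibitory receptor for CD47, was lower in Type D in both (-3.57 and -3.91). In Control, 4.42% of genes were called higher in Type D and 4.41% lower, and in Restored + CsA 3.76% and 4.06%.

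The machinery downstream of ITIMs was expressed. All 11 listed signalling genes passed the filter, and under CsA in Type D 1 of them was called higher with restoration and none lower, with a list median of 0.40 beside 0.09 over all genes tested, of which 3.53% were called higher. That gene was Inpp5d, which encodes the lipid phosphatase SHIP-1. Under vehicle Inpp5d was 0.0209, 0 and 0.136 TPM in 4711-1, 4711-18 and 4716-11, and after restoration 7.73, 0.792 and 13.2 TPM. With CsA it was 0.166, 0 and 0.0578 TPM before and 7.06, 0.591 and 16.9 TPM after restoration. Inpp5d rose by 2.53 without CsA (limma adjusted p = 0.0185) and by 2.51 with CsA (limma adjusted p = 0.0251) in Type D, and 4711-18 showed the smallest values. The call under CsA was lost without 4711-1 (adjusted p = 0.187), 4716-11 (0.276) or the Type V line 4716-14 (0.0510), and that without CsA was lost without 4711-1 (0.199) or 4716-11 (0.129).

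Unlike the pair, Inpp5d had values in Type V after restoration, 3.10, 1.502 and 4.86 TPM against at most 0.0632 TPM in Control. Its differences there, 1.93 without CsA and 1.85 with CsA, were not called (limma adjusted p = 0.0854 and 0.117) but were with the cell line as a block (limma adjusted p = 0.00673 and 0.00985), calls lost without 4711-11 or 4716-14. Without the block 2.84% of all genes were called higher under CsA in Type V. With the block 8.66% were called in Type V without CsA and 7.97% with it. Its difference between the types under CsA was 0.67 (limma adjusted p = 1), a comparison in which 0.00709% of genes (1 gene, Mgp, named after its values were seen) were called higher without the block, and 2.32% were called in either direction (0.978% higher) with it. Its Restored + CsA and Restored values differed in Type D by 0.02 on the log2(TPM + 1) scale (SE 0.684, limma adjusted p = 1).

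Of the other phosphatases, Ptpn6, which encodes SHP-1, had higher values in Type D lines without p53 (20.5 to 52.9 against 0.790 to 7.80 TPM, limma difference 3.01, adjusted p = 0.00540) and in Restored + CsA (26.1 to 39.0 against 0.854 to 5.28 TPM, limma difference 3.23, adjusted p = 0.00342). Ptpn11, which encodes SHP-2, ranged from 86.1 to 246 TPM over all libraries. Src, a kinase that can phosphorylate ITIMs, rose by 1.01 with restoration in Type D (limma adjusted p = 0.0153), and its difference under CsA, 0.93, fell short of the size threshold. The Src call was lost under both rescalings of the libraries (differences of 0.94 and 0.91) and without any one Type D line (0.89 to 1.16).

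The adaptors of activating relatives were low. Tyrobp (DAP12) was listed at 0 in all 24 libraries and Fcer1g (Fc receptor gamma chain) reached 1.947 TPM, in a Type V Control library. In the Type D Restored libraries, where the pair peaked, Fcer1g was 0, 0.488 and 0.683 TPM. Of the 5 adaptors and kinases listed, only Syk passed the filter, and it was not called in any comparison.

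All 5 genes of reported LILRB4 ligands and their partners were expressed. None was called with restoration in either line type without pairing. Fn1 (fibronectin) differed by 1.63 in Type D (limma adjusted p = 0.0772) and by 1.53 under CsA (limma adjusted p = 0.120), and both were called with the cell line as a block (limma adjusted p = 0.000208 and 0.000433) and with any one line left out of that fit. Itgb3 (integrin beta 3) had higher values in Type D lines in Control (1.69, limma adjusted p = 0.0254) and in Restored + CsA (1.53, limma adjusted p = 0.0451), but both calls were lost without 4711-1, 4716-11, 4711-11 or 4716-14 (adjusted p = 0.101 to 0.197). Apoe, proposed as a ligand of human LILRB4, stayed between 4.03 and 14.3 TPM.

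**Figure D5:**
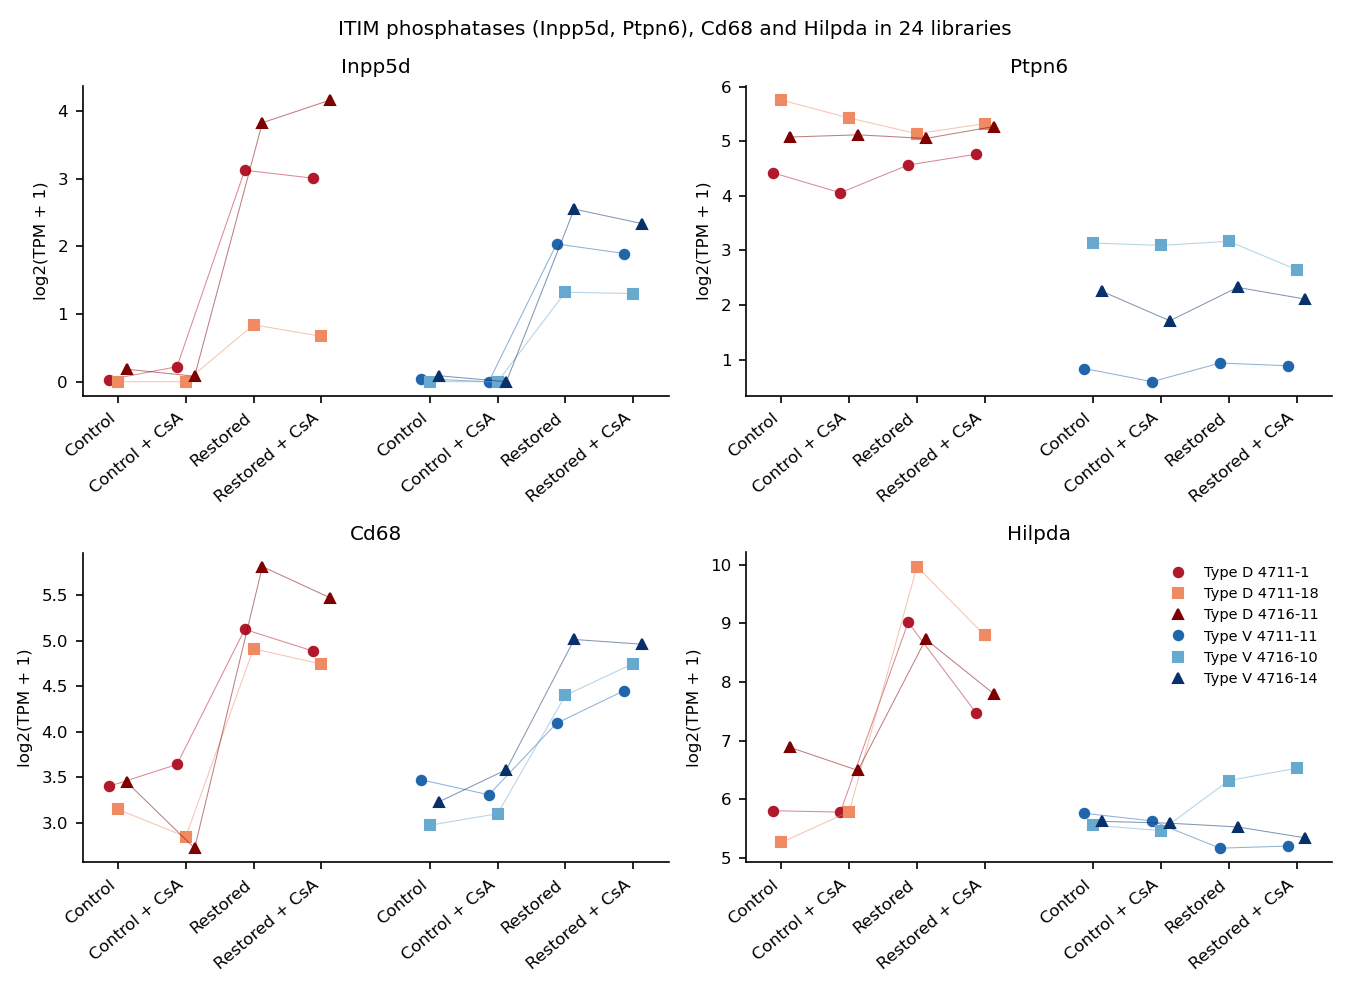
Levels as log2(TPM + 1) of Inpp5d, Ptpn6, Cd68 and Hilpda in each of 24 libraries by condition, Type D lines in red shades and Type V lines in blue shades, with separate vertical scales that do not all start at 0. Inpp5d and Cd68 lie higher after restoration in every line, Ptpn6 differs between line types in every condition, and Hilpda lies higher after restoration in Type D (423 to 1001 TPM) with lower values in Restored + CsA (177 to 444 TPM).

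As the gp49 receptors are markers of myeloid and mast cells, other genes of those cells were examined in the same libraries. Of 19 myeloid markers, 8 passed the filter, and levels differed widely over the list. Mrc1 was 21.4 to 113 TPM in Type D Control and 4.07 to 62.6 TPM in Type D Restored. Cybb reached 13.4 TPM, in a Type V Restored library. Other markers of the list were at or near 0. Ptprc (CD45) did not exceed 0.154 TPM, Adgre1 (F4/80) 0.0449 TPM, Itgam 0.627 TPM and Spi1 1.48 TPM in any library, and C1qa was listed at 0 in all 24. In the Type D Restored libraries Ptprc was 0, 0.0283 and 0.0791 TPM and Spi1 was listed at 0 in all 3. The summed level of the 19 markers in Type D was 236 to 409 TPM in Control, 244 to 452 TPM in Control + CsA, 145 to 231 TPM in Restored and 120 to 189 TPM in Restored + CsA. In Type V it was 45.8 to 162, 30.5 to 168, 94.05 to 190.2 and 54.7 to 135 TPM in the same order. Its order over the groups was thus not that of the pair. Cd14 was the largest part of this sum in Type D, at 202 to 281 TPM in Control and 105 to 107 TPM in Restored. The order of the sum in Type D therefore mostly follows Cd14, and some listed markers, such as Cd68, went the other way with restoration.

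The single myeloid marker called with restoration without pairing was Cd68, a lysosomal glycoprotein. Cd68 was 7.87 to 9.92 TPM in Type D Control and 29.1 to 55.3 TPM in Type D Restored (limma difference 1.952, adjusted p = 0.000134), and it also rose in Type V (1.28, limma adjusted p = 0.00766). Under CsA it rose by 1.96 in Type D (limma adjusted p = 0.000164) and by 1.39 in Type V (limma adjusted p = 0.00438). The Type V calls were lost without 4716-10 (adjusted p = 0.0765 without CsA and 0.0734 with it) and, without CsA, also without 4716-14 (0.109). In Control, Lyz2, Cd14 and Mrc1 exceeded their Type V levels in Type D lines (limma differences 1.04, 1.76 and 3.91), and in Restored + CsA Aif1 and Mrc1 did so (1.14 and 3.08). Each of these calls was lost when a line was left out: Lyz2 without 4711-1, Aif1 without 4716-11, Cd14 without any line but 4716-10, and Mrc1 without 4711-1 or 4711-11 in both, and also without 4716-11 or 4716-14 in Restored + CsA.

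With the cell line as a block, 3 more myeloid markers were called with restoration in Type D. Cd14, the lipopolysaccharide co-receptor, fell by 1.20 (limma with block, adjusted p = 0.000811), from 202 to 281 TPM in Control to 105 to 107 TPM in Restored, and by 1.63 under CsA (limma with block, adjusted p = 7.52e-05). Mrc1, the mannose receptor, fell by 1.26 (limma with block, adjusted p = 0.00581), a call lost without 4711-18, and under CsA it fell by 1.72 (limma with block, adjusted p = 0.00071). S100a8, a calcium-binding protein of neutrophils, rose by 1.03 (limma with block, adjusted p = 0.0348), from 0 to 0.917 TPM to 1.15 to 4.26 TPM, a call lost without 4711-1, 4711-18 or 4716-14. In Type V, Mrc1 fell by 1.08 (limma with block, adjusted p = 0.0159), a call lost without 4716-10 or 4716-14. The part of these changes in the pair's values was not tested.

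Of 9 mast cell markers, Cpa3 and Fcer1a were listed at 0 in all libraries and Kit did not exceed 0.103 TPM. The summed level was 2.45 to 4.58 TPM in Type D Control and 1.42 to 2.83 TPM in Type D Restored. Mcpt4, a mast cell protease, exceeded its Type V level in Type D Control (1.31) and fell by 1.20 with restoration in Type D, where 2.44% of all genes were called lower, a call lost without 4711-1 (-0.85, adjusted p = 0.148). Of 10 lymphoid markers only Cd79a passed the filter, and the other 9 stayed below 1 TPM in every library. Cd79a rose by 1.5 with restoration in Type D (limma adjusted p = 0.00246), to 0.959 to 4.65 TPM in Restored. The summed lymphoid level was 0.131 to 0.400 TPM in Control and 1.23 to 4.65 TPM in Restored. Under CsA the Cd79a difference was 0.60 (limma adjusted p = 0.263), which was not called, with 0.443 to 0.675 TPM in Restored + CsA. The part of the Cd79a rise in the pair's values was not tested.

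The genes whose levels followed the pair most closely were ranked by Pearson correlation with the summed pair, as a description over libraries that share lines. Over all 24 libraries the 5 highest were Trim15 (r = 0.93), Hilpda (0.92), Prl5a1 (0.90), Mir3076 (0.89) and Card14 (0.88). Of these, all but Hilpda were below 8 TPM throughout. Hilpda, a hypoxia-inducible gene of lipid droplets, was 55.0, 37.5 and 117 TPM in 4711-1, 4711-18 and 4716-11 in Control, 517, 1001 and 423 TPM in Restored and 177, 444 and 222 TPM in Restored + CsA. In Type V it stayed between 34.9 and 91.5 TPM in every condition. The order of the lines in Restored differed between Hilpda, highest in 4711-18, and the pair, highest in 4711-1.

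Over the 12 Type D libraries the 5 highest included Zfp142, Slc16a11, Morc3 and Rap2b (r = 0.96 for each). Rap2b, a small GTPase gene, was 21.1 to 34.2 TPM in Type D Control, 95.5 to 128 TPM in Restored and 60.4 to 73.0 TPM in Restored + CsA. Unlike the pair it was also high in Type V after restoration, at 52.3 to 149 TPM.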

How the data were processed

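RNA-seq (polyA, stranded, 75-base single-end reads) was performed by the authors on 24 libraries. The authors deposited 1 table of TPM values for 25239 genes, each library scaled to the same total. The submitters' processing notes name HISAT2 and the study's methods name Kallisto or HISAT2. Which of them made the table, and its genome build, are not given in the sources used here, so positions are those of GENCODE M21 (GRCm38). The members and all gene lists were chosen with earlier results of these data known. Tests planned for the pair in Restored + CsA libraries were dropped, since those values were among the known results. Groups came from the sample titles. Genes with TPM of at least 1 in at least 3 libraries (14104) were fitted on log2(TPM + 1) by limma 3.58.1 (R 4.3.3) in 8 groups with an intensity trend, two-sided, with Benjamini-Hochberg adjustment over all of them. The sum of the pair replaced both genes in a second fit. The fit was tested on simulated data. Libraries of a line deviated together from their group means (r = 0.60 to 0.93 over 36 pairs), so the line pairs the libraries. Different lines gave r = -0.67 to 0.04 over 72 pairs, but subtracting the mean of 3 lines itself pushes these values down. The fit with the line as a block is given where it changes a call. Leaving out each line from the blocked fit of the list genes was added after seeing the data. Named genes were the members, the list genes, 3 listed neighbours on each side and the 5 genes most correlated with the pair. Sequences were handled with Biopython 1.88, and global alignment with free end gaps gave identities. Some genes of the fixed lists and of the likeness ranking are not reported here.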

Additional observations from a re-analysis of the deposited data

Results flagged for a closer look

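The response to restoration differed between the line types for several genes of the lists when the cell line was a block, and for none of them without it (limma adjusted p = 0.314 to 1). With the block 2.32% of all genes were called in this comparison under CsA and 2.44% without CsA. Under CsA the Type D minus Type V difference was 1.98 for Tigit (limma with block, adjusted p = 0.0311), 1.73 for Fn1 (0.0194), 1.55 for Uchl1 (0.0219), -1.56 for Cd14 (0.0166) and -1.20 for Pilra (0.0344). Without CsA it was 2.01 for Uchl1 (0.00626), 1.01 for Mdm2 (0.00746), -1.70 for Cd14 (0.0111) and -1.19 for Alcam (0.0296). In each of these the 3 Type D lines did not overlap the 3 Type V lines. Each call was lost when 1 to 5 of the 6 lines were left out one at a time, and those for Cd14 (without 4711-1) and Uchl1 (without 4711-18), both without CsA, were lost for 1 line only. The positive values of Uchl1 are no rise in Type D, where its differences with restoration were -0.07 without CsA and -0.47 with it, neither called. In Type V it fell, with differences of -2.08 without CsA and -2.02 with it (limma adjusted p = 0.0062 and 0.0089).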

How the results depend on the processing

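TPM values carry no depth and 3 lines stand for each type. For the pair, the 74 alternative values of the tested comparisons (CsA alone) kept their side of the threshold. This says little, since the pair was at or near 0 in both groups. Of 364 alternative values of the described differences, 26 moved by more than the spread between lines and none reversed. The fit with the replicate block (cell line) changed no call of the pair and left its differences at 2.23 (Lilr4b) and 2.50 (sum) for restoration under CsA in Type D. Lilrb4a had no value at a minimum of 5 TPM or without Type D replicate 2, where it failed the filter. A pseudocount of 0.1 moved the described differences of the pair. Restoration in Type D went to 6.06 (Lilr4b), 6.41 (Lilrb4a) and 6.45 (sum), in Type V to 0.34, 0.53 and 0.67, and between types to 5.72, 5.88 and 5.78. Under CsA it went to 4.70, 3.47 and 5.03 in Type D, to 0.28 in Type V for Lilr4b and the sum, and to 4.43, 3.47 and 4.75 between types. Restored + CsA between types went to 5.12, 3.47 and 5.44, CsA on Restored in Type V to -0.058, -0.53 and -0.39, and Control between types to 2.03 for Lilr4b and for the sum. Quantile normalization gave Lilrb4a 0.00066 in Control between types. Called genes under CsA went from 763 to 1366 in Type D and from 650 to 1124 in Type V with the block, and to 276 in Type V with compared groups only. Between types in response they went from 2 to 327 with the block, 0 with pseudocount 0.1, 5 with no filter and 1 with compared groups only. Between types in Restored + CsA they went from 1103 to 598 with compared groups only. For CsA alone in Type D they went from 0 to 2 with the block. Leaving out each line gave 452 to 873 in Type D, 497 to 653 in Type V, 1 to 6 between types in response, 695 to 1617 between types in Restored + CsA and 0 to 1 for CsA alone in Type D. Of the 5 genes most like the pair, 1 and 0 stayed over 24 and 12 libraries with Spearman, and 2 and 0 without Type D replicate 1. Of 27 list calls, 63 of 327 alternative values lost the call and none changed direction. No blocked fit exists for comparisons of types within 1 condition.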
